A study of Homo sapiens with 4 samples.

Results

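The nuclear-encoded subunits of respiratory complexes II, III, IV and V were followed as transcripts in 4 libraries of breast cancer cells in which TMEM126A had been lowered or raised. The members were all protein-coding rows of the gene tables with the symbols SDHA to SDHD, CYC1, or a symbol beginning with UQCR, COX4 to COX8 or ATP5. The rule gave 50 genes of 39261: 4 of complex II, 10 of complex III, 17 of complex IV and 19 of complex V. Of these, 45 encode subunits or their isoforms. The other members are UQCRHL, an intronless copy of UQCRH, COX7A2L, which encodes a supercomplex factor, ATP5S and ATP5SL, named for the synthase but not subunits of it, and the readthrough gene ATP5J2-PTCD1. The symbols are those of the tables, so that ATP5D, for example, is now called ATP5F1D.

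Total RNA was sequenced from 2 cell lines, grown by the labels to passage 10 to 15 and carrying constructs brought in by lentivirus. MDA-MB-231, a mesenchymal triple-negative line grown in L15 with fetal bovine serum, carried either a construct against TMEM126A or a control vector. Ca1a cells, a tumour-forming line of the MCF10A series of mammary epithelium, were grown in DMEM/F12 with horse serum, insulin, EGF, cholera toxin and hydrocortisone, and carried either a construct that overexpresses TMEM126A or a control vector. The labels do not say whether any line is a single clone. Each of the 4 groups is 1 library, so no test between conditions was possible, and no difference below has a replicate check. The 95% intervals beside values allow for counting error alone, not for variation between cultures.

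The respiratory chain of the mitochondrial inner membrane passes electrons from NADH and succinate to oxygen. Complex II oxidises succinate, complex III moves electrons from ubiquinol to cytochrome c, complex IV reduces oxygen, and complex V, the ATP synthase, uses the resulting proton gradient to make ATP. Complexes III, IV and V combine nuclear-encoded subunits with a few encoded in mitochondrial DNA, whereas all subunits of complex II are nuclear-encoded. TMEM126A is an inner membrane protein with a part in the assembly of complex I, the NADH dehydrogenase, which stands beside these complexes.

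The reads counted to genes summed to 20673373 to 21405193 per library. TMEM126A stood at 22.9 normalized counts (reads over a size factor for each library) after knockdown and 559 without it, a level 24.5-fold lower (16.1 to 38.9). With overexpression in Ca1a it stood at 9381 counts against 265 in the control, 35.4-fold higher (31.3 to 40.1). The 3 epithelial markers CDH1, EPCAM and KRT17 summed to 835 to 855 FPKM (fragments scaled to transcript length and library size) in the Ca1a libraries and to 3.89 to 4.25 in those of MDA-MB-231. The mesenchymal markers VIM and ZEB1 summed to 716 to 730 FPKM in MDA-MB-231 and 74.9 to 90.6 in Ca1a. VIM was lower in the overexpression library, at 6551 and 5449 counts, a ratio of 0.832 (0.802 to 0.862). PECAM1, an endothelial marker of at most 1.36 FPKM, was higher in both treated libraries, 1.66-fold (1.39 to 1.98) with overexpression and 1.88-fold (1.45 to 2.45) with knockdown. The part of these in the members' values was not tested. The 3 muscle markers MYH1, CKM and DES summed to at most 0.160 FPKM in any library, and immune, adipocyte, endothelial and fibroblast markers each summed to at most 1.80 FPKM.

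Of the 50 members, 41 had a mean of at least 20 normalized counts in the MDA-MB-231 pair and 42 in the Ca1a pair. Those 41 ranged from 324 to 18637 counts, with a median of 1978. A member was called higher or lower when it differed by at least 1.1-fold and its counting interval left out a ratio of 1. The 9 members below the minimum in MDA-MB-231 were COX4I2, COX6A2, COX7A1, COX8C and ATP5J2-PTCD1 at 0 reads, and COX6B2, COX7B2, ATP5E and ATP5L2 at no more than 4.02 normalized counts. In Ca1a COX6B2 passed, and the other 8 members had 0 reads or, for ATP5L2, 1 read.

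With TMEM126A raised in Ca1a, 21 of 42 members were called higher, 1 was called lower and 20 were not called. Over all 12111 genes tested the same rule called 13.5% higher and 12% lower. The members' median log2 ratio was 0.14, against 0.01 for all tested genes. The differences were small: 2 members, COX7B and UQCR10, were called higher at 1.2-fold and 1 lower, ATP5D, where all genes gave 5.76% and 5.94%. A ratio above 1 was seen in 36 of 42 members, where the median of all tested genes lay just above a ratio of 1. The counting interval left out 1 for 28 on the higher side, against 18.1% of all genes, and for 1 on the lower side, against 16.2%. From FPKM, where only the fold was applied, 18 were called higher and 1 lower, against 19.9% and 24.3% of all genes. SDHB, UQCRC2, ATP5C1, ATP5F1, ATP5I and ATP5SL were then not called, and ATP5G2, ATP5I and ATP5SL were not called with TMM scaling.

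**Figure D1:**
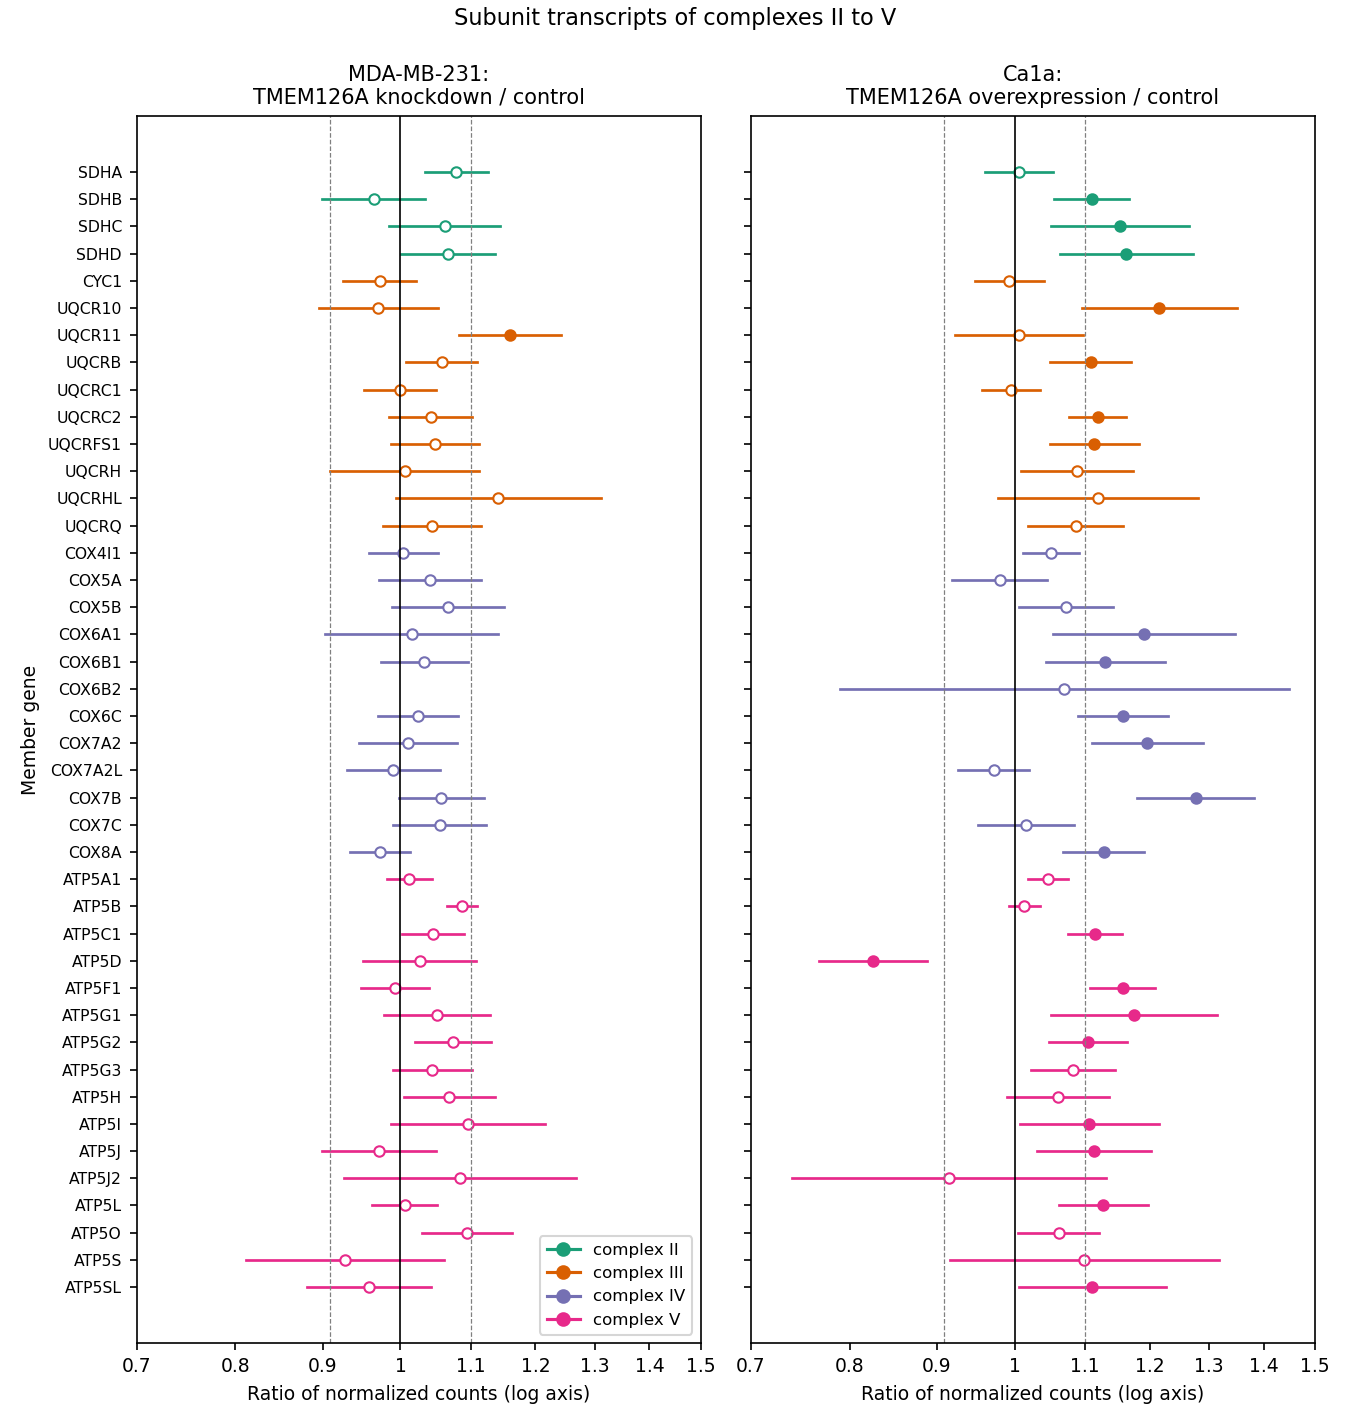
Each row is a member gene, with its ratio of normalized counts (log axis) for the MDA-MB-231 knockdown over control (left) and the Ca1a overexpression over control (right). Horizontal bars are 95% counting intervals, filled points are called, dashed lines mark 1.1-fold, and colours give the complex. Filled points are 1 of 41 on the left and 22 of 42 on the right.

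Complex II had 3 of its 4 subunits called higher in the overexpression library. SDHB, the iron-sulfur subunit, stood at 2934 counts in the control and 3255 in the overexpression library, 1.11-fold higher (1.06 to 1.17). The membrane anchor genes SDHC and SDHD were 1.15-fold (1.05 to 1.27) and 1.16-fold (1.06 to 1.27) higher. SDHC had 838 and 966 counts and SDHD 906 and 1053 counts in the control and overexpression libraries. SDHA, the flavoprotein that binds succinate, stood at 3726 and 3748 counts, a ratio of 1.01 (0.961 to 1.05). The catalytic flavoprotein therefore lay within counting error of its control, while the other 3 subunits did not.

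Complex III had 4 of 10 members called higher. UQCR10, a small accessory subunit, had 654 counts in the control and 795 in the overexpression library, 1.22-fold higher (1.09 to 1.35). Its position in GRCh38 is the plus strand of chromosome 22, 29767369 to 29770413. UQCRC2, a core subunit, was 1.12-fold higher (1.08 to 1.16), at 5069 and 5670 counts. UQCRFS1, the Rieske iron-sulfur protein, was 1.11-fold higher (1.05 to 1.18), at 2035 and 2266 counts. Summed with its pseudogene UQCRFS1P1 the ratio was 1.04 (0.979 to 1.1), which ends that call. UQCRB, a ubiquinone-binding accessory subunit, was also 1.11-fold higher (1.05 to 1.17), at 2452 and 2717. The partner core subunit UQCRC1 had 5184 and 5157 counts, a ratio of 0.995 (0.957 to 1.03), and cytochrome c1 (CYC1) had 3547 and 3521, a ratio of 0.993 (0.947 to 1.04). UQCRHL, the intronless copy, had 412 and 461 counts, a ratio of 1.12 whose interval held 1 (0.978 to 1.28). In counts the 2 core subunits of this complex thus stood apart, with UQCRC2 called higher and UQCRC1 within counting error. From FPKM the ratio of UQCRC2 was 1.09, and it was not called.

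Complex IV held the member with the largest ratio, COX7B, and had 6 of 12 tested members called higher. COX7B, a small membrane subunit, stood at 1131 counts in the control and 1444 in the overexpression library, 1.28-fold higher (1.18 to 1.38). Its position in GRCh38 is the plus strand of the X chromosome, 77899438 to 77907373. COX7A2, the widely expressed form of subunit VIIa, had 1274 and 1524 counts, 1.2-fold higher (1.11 to 1.29). COX6A1, the widely expressed form of subunit VIa, had 481 and 573, 1.19-fold higher (1.05 to 1.35). COX6C had 1936 and 2241, 1.16-fold higher (1.09 to 1.23). The other called members were COX6B1, 1.13-fold higher (1.04 to 1.22), and COX8A, 1.13-fold higher (1.07 to 1.19). All 6 encode small subunits that surround the catalytic core, which is itself encoded in mitochondrial DNA.

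The remaining complex IV members were closer to their control. COX4I1, the widely expressed form of subunit IV, had 5206 and 5466 counts, a ratio of 1.05 (1.01 to 1.09) that left out 1 but stayed under 1.1-fold. COX5B stood at 1.07 (1.01 to 1.14) in the same position. COX5A had 1892 and 1854 counts, a ratio of 0.980 (0.919 to 1.05), and COX7C had 1858 and 1886, a ratio of 1.02 (0.952 to 1.08). COX7A2L, which joins complex III to complex IV in supercomplexes, had 3445 and 3348 counts, a ratio of 0.972 (0.926 to 1.02).

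Complex V had 8 of 16 tested members called higher and 1 called lower. ATP5D, the delta subunit in the central stalk of the catalytic F1 part, was the exception, at 1643 counts in the control and 1357 in the overexpression library. That is 1.21-fold lower (1.13 to 1.3). Its position in GRCh38 is the plus strand of chromosome 19, 1241746 to 1244826. Its longest transcript had the highest GC content of all members, 69.6%. ATP5G1, which encodes the c subunit of the membrane ring, had 583 and 685 counts, 1.17-fold higher (1.05 to 1.31). ATP5F1, the b subunit of the peripheral stalk, had 3807 and 4404, 1.16-fold higher (1.11 to 1.21). ATP5L, the g subunit, had 2071 and 2335, 1.13-fold higher (1.06 to 1.2).

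The other called members of complex V lay close to the threshold. ATP5C1, the gamma subunit that turns inside F1, was 1.11-fold higher (1.07 to 1.16), at 5372 and 5988 counts. ATP5J of the peripheral stalk was 1.11-fold (1.03 to 1.2), ATP5I of the membrane part 1.11-fold (1.01 to 1.21) and ATP5G2, another c subunit gene, 1.1-fold higher (1.05 to 1.16). ATP5SL was 1.11-fold higher (1.01 to 1.23). The alpha and beta subunits, which form the catalytic ring, had the most counts of all members. ATP5A1 (alpha) had 10481 and 10960 counts, a ratio of 1.05 (1.02 to 1.07), and ATP5B (beta) had 17927 and 18163, a ratio of 1.01 (0.992 to 1.03). Neither of these ring subunits was called.

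Summed over tested members, the overexpression library was higher by a ratio of 1.07 (1.04 to 1.11) for complex II, 1.06 (1.05 to 1.08) for complex III, 1.08 (1.06 to 1.095) for complex IV and 1.06 (1.04 to 1.07) for complex V. The median log2 ratio per member was 0.18, 0.13, 0.14 and 0.14 in the same order. Complex II had the highest median of the 4.

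Transcript length and GC content moved with the calls of all genes in Ca1a. Among abundant protein-coding genes (mean 1000 counts or more), 14.7% were called higher and 13.3% lower, and 14 of the 31 members there were called higher. Among tested protein-coding genes whose longest transcript has at most 1000 bases, 18.9% were called higher and 9.74% lower, and 7 of 14 members there were called higher. In the lowest tertile of transcript GC (at most 43.7%), 15.8% of protein-coding genes were called higher and 8.84% lower, against 9 and 0 of 13 members. In the highest tertile (above 53.7%), 9.37% were called higher and 18.8% lower, against 6 and 1 of 13 members, ATP5D being the 1. In the middle tertile the shares were 16.1% and 10%, against 6 and 0 of 16 members. The share of members called higher was above that of all genes in each of these classes, and the part of length and GC in the result was not tested.

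**Figure D2:**
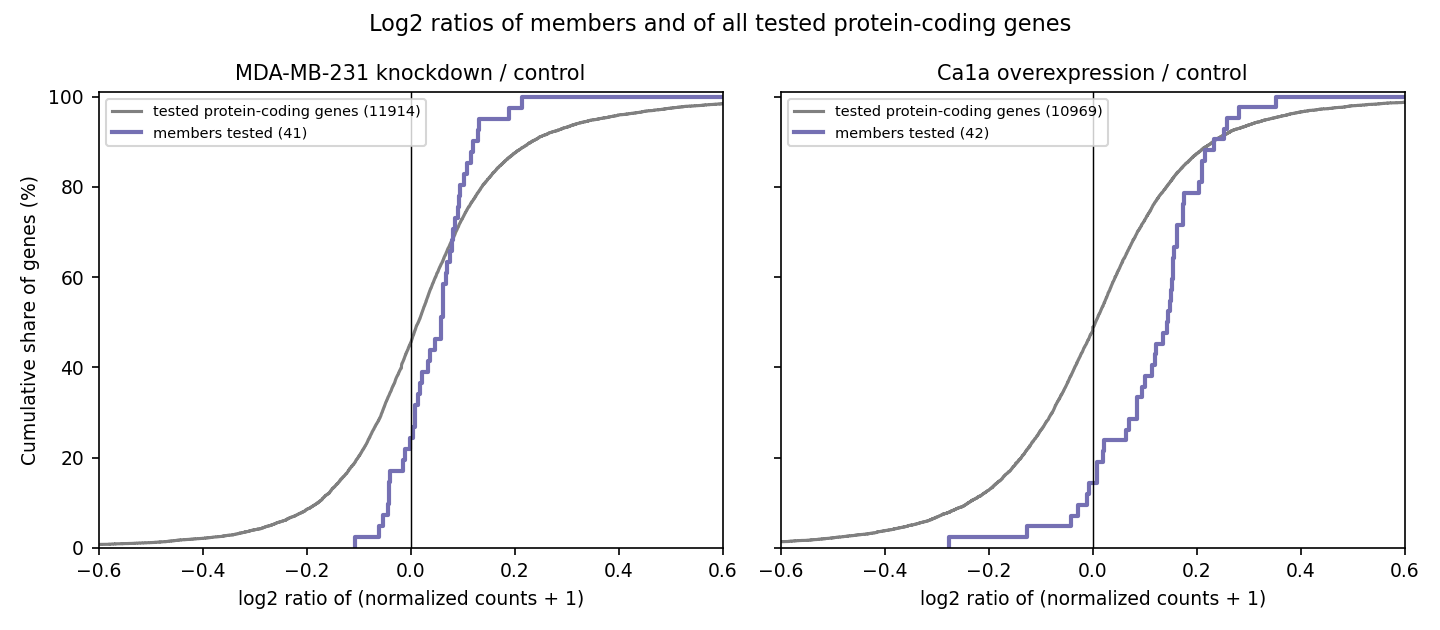
Cumulative share of genes (vertical axis, %) by log2 ratio (horizontal axis) for tested members and for all tested protein-coding genes, in the knockdown comparison (left) and the overexpression comparison (right). The members' line lies to the right of all genes at its middle, with medians of 0.06 on the left and 0.14 on the right.

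Promoters of the called members are shown for the sequences known to bind factors of respiratory gene expression. Nuclear respiratory factor 1 (NRF1), the ETS factor GABP and YY1 are known regulators of many respiratory subunit genes. RefSeq promoter windows of GRCh38.p14 were matched for 36 of 50 members, and each runs from 250 bases before to 50 bases after a start. They were searched on both strands for the NRF1 core GCATGCGC, the ETS core CCGGAAG and the YY1 core AAGATGGC. The stretches below lie upstream of the start and outside annotated exons, with matches in capitals. COX7B and UQCR10 are shown as the members with the largest ratios, COX6A1 and SDHB as called members with an NRF1 match, COX5B as a member with NRF1 and ETS matches that was not called in either comparison, and UQCR11 as the member called in the knockdown comparison.
COX7B, chrX:77899318-77899437, plus strand: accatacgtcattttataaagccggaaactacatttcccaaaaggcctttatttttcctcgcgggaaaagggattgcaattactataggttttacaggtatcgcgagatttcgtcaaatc
UQCR10, chr22:29767249-29767368, plus strand: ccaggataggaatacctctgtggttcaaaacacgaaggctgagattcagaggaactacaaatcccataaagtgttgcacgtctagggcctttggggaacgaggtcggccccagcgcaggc
COX6A1, chr12:120437883-120437963, plus strand: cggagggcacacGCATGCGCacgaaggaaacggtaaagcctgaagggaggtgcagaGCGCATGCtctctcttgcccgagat
SDHB, chr1:17054171-17054262, minus strand: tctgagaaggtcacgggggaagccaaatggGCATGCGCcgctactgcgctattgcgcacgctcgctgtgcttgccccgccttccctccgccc
COX5B, chr2:97645912-97646039, plus strand: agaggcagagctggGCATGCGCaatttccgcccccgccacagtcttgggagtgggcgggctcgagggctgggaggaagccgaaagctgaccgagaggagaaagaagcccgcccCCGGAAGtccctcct
UQCR11, chr19:1605491-1605612, minus strand: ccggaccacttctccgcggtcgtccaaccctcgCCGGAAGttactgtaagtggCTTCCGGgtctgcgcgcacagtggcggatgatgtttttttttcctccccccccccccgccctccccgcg

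The NRF1 core was present in 8 of 36 matched members (22.2%), the ETS core in 15 (41.7%) and the YY1 core in 5 (13.9%). Among tested protein-coding genes with such a window the shares were 6.68%, 23.6% and 6.97%. Over all genes with a window they were 3.68%, 12.2% and 3.52%. Of 18 matched members called higher in Ca1a, 7 held the NRF1 core (SDHB, SDHD, COX6A1, ATP5C1, ATP5G2, ATP5I and ATP5J), and of 14 tested members not called higher, 1 did (COX5B). From FPKM, SDHB, ATP5C1 and ATP5I lose their call, which leaves 4 of the 7. Those that lose it then stand with COX5B among the members that hold the core and were not called higher. The contrast therefore depends on the measure, and a link between the core and the calls was not tested. The ETS core was in 8 of the 18 and 7 of the 14, and the YY1 core in 3 and 2. The windows of COX7B and UQCR10, the members with the largest ratios, held none of the 3 letter strings. A match describes the letters of the window and shows no binding in these cells.

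With TMEM126A lowered in MDA-MB-231, 1 of 41 members was called higher and 0 were called lower, where all 13292 tested genes gave 11.4% and 7.87%. At 1.2-fold no member was called, and all genes gave 5.33% and 3.39%. From FPKM, where only the fold was applied, 3 members were called higher (UQCR11, UQCRB and COX7C) and 2 lower (ATP5J and ATP5S), against 19.4% and 19.1% of all genes. With scaling by total reads and the 1.1-fold rule, 8.34% of all genes were called higher and 11.7% lower, and 1 and 0 members. The member called was UQCR11, a small accessory subunit of complex III, with 1544 normalized counts in the control and 1790 in the knockdown library. It was 1.16-fold higher (1.08 to 1.24). Its position in GRCh38 is the minus strand of chromosome 19, 1597172 to 1605490, where it shares 235 exonic bases with AC005943.1 on the same strand. In Ca1a UQCR11 had 1041 and 1047 counts, a ratio of 1.01 (0.922 to 1.1). The members' median log2 ratio was 0.06, against 0.01 for all genes. Of 41 ratios 31 lay above 1, and so did 7160 of 13292 over all genes. The share of members called higher was thus below that of all genes, while the members' ratios were packed close together, from -0.11 to 0.21 on the log2 scale.

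In the knockdown comparison, on the authors' size factors, the intervals of 9 members left out 1 on the higher side, and none did on the lower side. The lower bounds of SDHD, ATP5C1, ATP5H, UQCRB and ATP5G2 lay at 1.001 to 1.02. The upper bounds of COX8A and CYC1 lay at 1.01 and 1.02. Another scaling can therefore move such intervals across 1. With scaling by total reads the ratio of UQCR11 was 1.13, against 1.16 on the authors' size factors. The interval alone gave 16.8% higher and 11.3% lower over all genes. ATP5B, the beta subunit, had 17864 normalized counts in the control and 19410 in the knockdown library, a ratio of 1.09 (1.06 to 1.11). SDHA had 4080 and 4400, a ratio of 1.08 (1.03 to 1.13). ATP5O, the subunit that ties the peripheral stalk to F1, had 1995 and 2183, a ratio of 1.09 (1.03 to 1.16). SDHA and ATP5B lay within counting error in Ca1a, while cytochrome c1 (CYC1) did so in both comparisons, at 0.972 (0.926 to 1.02) with knockdown. UQCRB, ATP5C1, ATP5G2, ATP5H and SDHD had ratios of 1.04 to 1.07, and UQCR11 completes the 9.

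The other members with the larger knockdown ratios had intervals that held 1. UQCRHL had 389 and 444 normalized counts, a ratio of 1.14 (0.993 to 1.31). ATP5I had 698 and 765, a ratio of 1.1 (0.988 to 1.22), and ATP5J2, the f subunit, 311 and 337, a ratio of 1.08 (0.926 to 1.27). In complex IV the largest ratios were those of COX5B at 1.07 (0.988 to 1.15), COX7B at 1.06 (0.998 to 1.12), COX7C at 1.05 (0.990 to 1.12) and COX5A at 1.04 (0.972 to 1.11). SDHC stood at 1.06 (0.985 to 1.14), SDHB at 0.964 (0.9 to 1.03) and UQCRFS1 at 1.05 (0.988 to 1.11). The lowest ratio was that of ATP5S, at 465 and 431 normalized counts, 0.928 (0.812 to 1.06). On the authors' size factors no complex IV subunit lay beyond counting error in this comparison.

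Summed over tested members, the knockdown library was at 1.05 (1.02 to 1.08) for complex II, 1.03 (1.01 to 1.05) for complex III, 1.02 (0.999 to 1.04) for complex IV and 1.05 (1.03 to 1.06) for complex V. On the same scaling the summed counts of all tested genes had a ratio of 1.02. With scaling by total reads 25 of 41 members lay above 1, where the median log2 ratio of all tested genes was -0.02. In the overexpression comparison the summed ratio of all tested genes was 1.003.

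The comparisons use separate controls, so the members' ratios can be set side by side. Of 41 members tested in both, 28 had a ratio above 1 in both, 7 were below 1 with knockdown and above 1 with overexpression, 3 were the other way and 3 were below 1 in both. Over the 11349 genes tested in both, the shares were 28.2%, 23.4%, 24.4% and 23.1% in the same order. Across members the log2 ratios had a Pearson r of -0.13 and a Spearman rho of -0.14, a description over 41 genes that share libraries. The overexpression ratio fell below the knockdown ratio beyond counting error for SDHA, UQCR11, ATP5B and ATP5D. It exceeded the knockdown ratio in the same way for others, COX7B and UQCR10 among them. COX7B had 1.21 times (1.1 to 1.33) and UQCR10 1.25 times (1.1 to 1.43) the ratio of the knockdown comparison. ATP5D had 0.805 times (0.725 to 0.894). The lines differ in origin and medium, so line and direction of the TMEM126A change cannot be told apart here.

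**Figure D3:**
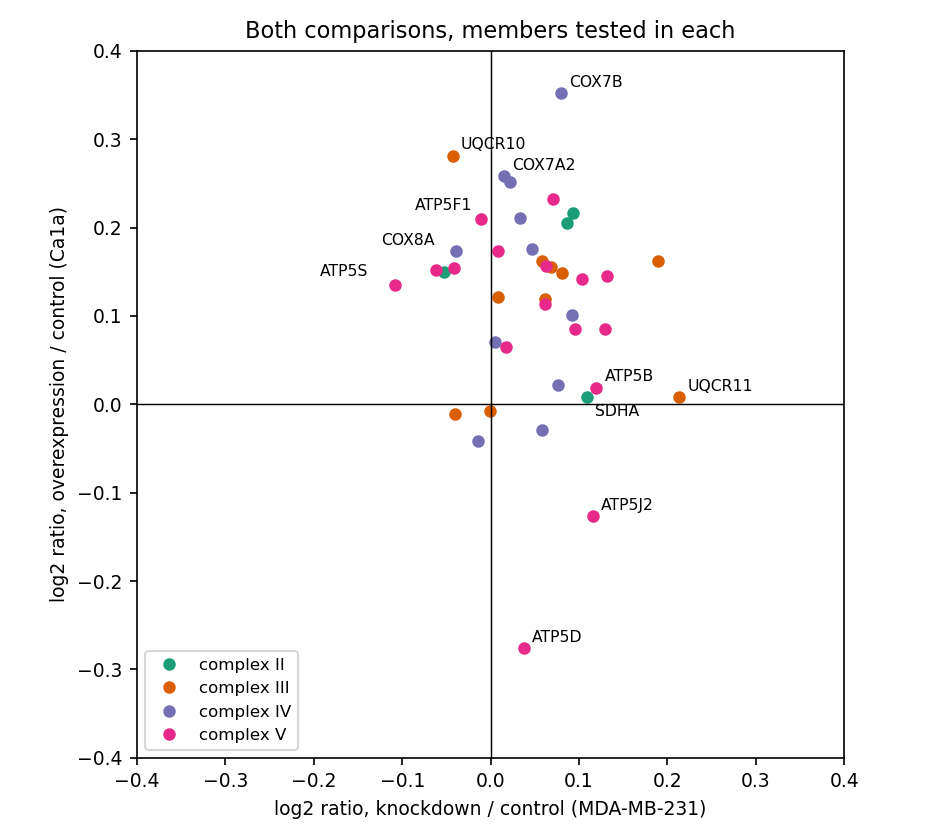
Log2 ratio of each of 41 members in the knockdown comparison (horizontal) and the overexpression comparison (vertical), coloured by complex, 1 point a gene. Of these, 28 points lie in the upper right part, COX7B is highest, ATP5D lowest and UQCR11 farthest right.

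The authors' deposited table gives an adjusted p for 45 members in the knockdown comparison and 43 in the overexpression comparison. In the authors' deposited table every one of these values is 1, with 1 library on each side.

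Assembly factors build these complexes without being part of them. The lists of such factors also held ATPIF1, the inhibitor of ATP hydrolysis, and the synthase components USMG5 and C14orf2, and 43 of 47 listed symbols were in the tables. In Ca1a, 12 of 39 tested genes of these lists were called higher and 1 lower, against the 13.5% and 12% of all genes, with a median log2 ratio of 0.06. Complex IV assembly gave 7 of 23 higher. COA3, which takes part in the synthesis of COX1, had 160 and 234 counts, 1.46-fold higher (1.19 to 1.80). COX17, the copper chaperone of the complex, had 420 and 582, 1.39-fold higher (1.22 to 1.57). COA4 and HIGD1A were 1.24-fold (1.14 to 1.34) and 1.22-fold higher (1.18 to 1.26). COX18, COX19 and TACO1 were the others. UQCC1 and TTC19 of complex III were 1.29-fold (1.15 to 1.44) and 1.12-fold higher (1.06 to 1.19). The complex V genes ATPAF1, ATPAF2 and ATPIF1 were 1.16-fold (1.05 to 1.28), 1.28-fold (1.12 to 1.46) and 1.18-fold higher (1.11 to 1.26). SDHAF1, a complex II factor, was 1.23-fold lower (1.02 to 1.48).

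In MDA-MB-231, 2 of 40 tested genes of these lists were called higher (UQCC3 and CMC1) and 4 lower (SDHAF2, COX10, COX19 and ATPAF1), where all genes gave 11.4% and 7.87%. COX19 and ATPAF1, called higher in Ca1a, were 1.17-fold (1.02 to 1.34) and 1.16-fold lower (1.03 to 1.3) here. Among 14 listed carriers and regulators of mitochondrial biogenesis, 0 were called in MDA-MB-231. In Ca1a 3 of 13 tested were called higher and 3 lower, against 13.5% and 12% of all genes. TFAM, the mitochondrial transcription factor, was 1.14-fold (1.06 to 1.22), TFB2M 1.13-fold (1.01 to 1.26) and MYC 1.13-fold higher (1.11 to 1.16). NRF1 was 1.22-fold (1.06 to 1.42), POLRMT, the mitochondrial RNA polymerase, 1.22-fold (1.1 to 1.35) and ESRRA 1.17-fold lower (1.1 to 1.23). The calls of the assembly and regulator lists are in counts and were not repeated from FPKM. In Ca1a ESRRA stood at 59.0 and 54.8 FPKM and TFB2M at 13.4 and 14.7, closer than in counts. NRF1 stood at 3.73 and 3.02 FPKM, which was not closer.

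Complex I subunits are the closest other group. They were taken by symbol alone, beginning with NDUFA, NDUFB, NDUFC, NDUFS or NDUFV but not NDUFAF. Not every gene so taken need be a subunit of complex I. The group had 12 of 37 called higher and 0 lower in Ca1a, against 13.5% and 12% of all genes, with a median log2 ratio of 0.09. In MDA-MB-231 the group had 5 of 36 higher and 0 lower, with a median of 0.02, against 11.4% and 7.87%. The summed ratio in Ca1a was 1.07 (1.06 to 1.09) for complex I and 1.06 (1.05 to 1.07) for complexes II to V. Whether the groups differ was not tested. None of the 6 mitochondrially encoded subunits of complexes III, IV and V was found under its symbol with the prefix MT-. Other names were not searched, so these subunits were not analysed here.

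Between the 2 control libraries 26 members were higher in MDA-MB-231 and 18 in Ca1a on the FPKM scale. Of 44 members with at least 1 FPKM in either control, 7 were at least 2-fold higher in MDA-MB-231 and 2 at least 2-fold lower. Over all 12101 such genes 27.5% were higher and 13.9% lower by that fold. The members' median log2 ratio, MDA-MB-231 over Ca1a, was 0.13, and that of all such genes 0.32. By these medians the members leaned to MDA-MB-231 less than all genes did. ATP5G1 was 2.65-fold higher in MDA-MB-231, at 94.1 against 35.5 FPKM. COX7B stood at 360 and 176 FPKM, COX6B1 at 214 and 106, ATP5E at 699 and 337, SDHD at 57.0 and 28.3, and ATP5L at 63.9 and 31.7. ATP5J2-PTCD1, at 2.83 and 1.09 FPKM, had 0 reads in the count tables. In reads scaled to library size, ATP5G1 was 2.60-fold higher (2.36 to 2.87) and COX7B 2.11-fold higher (1.97 to 2.27). COX7B stood at 225 FPKM and SDHD at 32.5 in the Ca1a overexpression library, each below the MDA-MB-231 control.

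The members lower in MDA-MB-231 were fewer. UQCRC2 stood at 51.9 FPKM there and 109 in the Ca1a control, 2.09-fold lower, and 2.06-fold lower in scaled reads (1.96 to 2.17). SDHB stood at 55 and 95.5 FPKM, COX7A2L at 50.6 and 87.0 and UQCRC1 at 87.0 and 138 FPKM. Within complex II the FPKM order from high to low was SDHD, SDHB, SDHA and SDHC in MDA-MB-231, and SDHB, SDHA, SDHD and SDHC in Ca1a. Reads scaled to library size and longest transcript gave SDHA 82.1, SDHB 69.3, SDHD 62.7 and SDHC 4.83 in MDA-MB-231. The order there thus depends on the measure. SDHC was at the low end in both, but its value of 4.83 divides by a longest transcript of 13566 bases. In normalized counts of the MDA-MB-231 control it had 1362, against 1663 for SDHB.

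**Figure D4:**
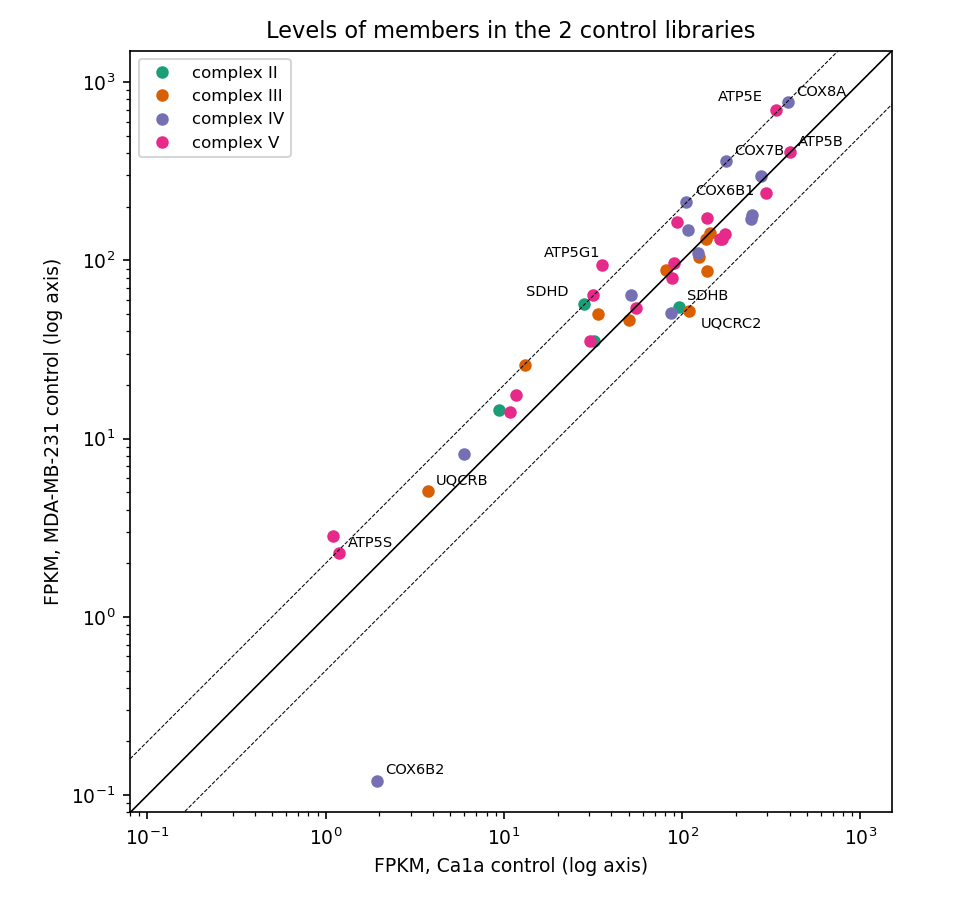
FPKM of 44 members in the Ca1a control (horizontal, log axis) and the MDA-MB-231 control (vertical, log axis), 1 point a gene, coloured by complex. The solid line is equal level and dashed lines are 2-fold. COX6B2, at 1.94 and 0.121 FPKM, lies farthest from the line.

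Levels between members spanned a wide range on the FPKM scale, which is scaled to transcript length. COX8A was the highest member of complex IV in both controls, at 773 FPKM in MDA-MB-231 and 393 in Ca1a. In complex V the highest were ATP5E in MDA-MB-231, at 699 FPKM, and ATP5B in Ca1a, at 402. In complex III UQCRHL was highest, at 142 and 144 FPKM, and UQCRB lowest, at 5.09 and 3.74. In complex II SDHC was lowest, at 14.4 and 9.37 FPKM. The lowest of complex IV was COX6B2, and the lowest of complex V with at least 1 FPKM were ATP5S in MDA-MB-231, at 2.27, and ATP5J2-PTCD1 in Ca1a.

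Some of these levels do not match the counts of the same libraries. ATP5E, the epsilon subunit in F1, was at 699 FPKM with 3.02 normalized counts in the MDA-MB-231 control, and at 337 FPKM with 0 reads in the Ca1a control. The transcript SLMO2-ATP5E, named as a readthrough into it, had 0 reads in all libraries. UQCRB had 3300 normalized counts but 5.09 FPKM, and COX7A2 1756 but 8.19 FPKM. Reads divided by FPKM and by library size give an implied length of 31158 bases for UQCRB and 10311 for COX7A2. Their longest annotated transcripts have 5575 and 914 bases. UQCRHL goes the other way, with an implied length of 132 bases against 2180. The FPKM of UQCRB and COX7A2, and the counts of ATP5E, are therefore uncertain as levels, and so are the FPKM of COX7B and SDHA. For UQCRHL and ATP5J2 both the counts and the FPKM are uncertain. In the Ca1a control and overexpression libraries ATP5J2 had 189 and 173 counts but 93.2 and 112 FPKM. In all, the implied length was over 2 times the longest transcript for 5 of 41 members (SDHA, UQCR10, UQCRB, UQCRQ and COX7A2). It was under 0.5 times that length for 9 members, COX7B, ATP5J2 and SDHC among them.

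Tissue isoforms of complex IV had few or no reads beside the common form, apart from COX6B2 in Ca1a. COX4I2, the lung and oxygen-responsive form of subunit IV, COX6A2 and COX7A1, the heart and muscle forms of VIa and VIIa, and COX8C, a testis form, had 0 reads in all 4 libraries. A count of 0 allows up to 3 reads as a one-sided limit, which for COX4I2 is 0.0851% of the reads of the COX4 pair in the MDA-MB-231 control and 0.0576% in the Ca1a control. For COX7A1 the limits are 0.172% and 0.235% of its pair, and for COX6A2 0.524% and 0.624%. The two-sided exact binomial bounds, which match the intervals of shares below, are wider, at 0.105% for COX4I2, 0.211% for COX7A1 and 0.642% for COX6A2 in the MDA-MB-231 control. The reads of a pair are not scaled to length.

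COX6B2, the testis form of subunit VIb, was the exception. It had 87 reads in the Ca1a control and 93 in the overexpression library, beside 1138 and 1286 reads of COX6B1. That is 7.10% (5.73 to 8.69, exact binomial interval) and 6.74% (5.48 to 8.20) of the pair. In MDA-MB-231 it had 4 and 3 reads, 0.179% (0.0489 to 0.458) and 0.129% (0.0265 to 0.375) of the pair. In scaled reads the Ca1a control was 21.1-fold above the MDA-MB-231 control (7.95 to 79.2). In the annotation COX6B2 shares 1178 exonic bases with the protein-coding gene AC020922.1 on the same strand, and reads of the 2 cannot be told apart by position. COX7B2, another testis form, had 2 and 1 reads in MDA-MB-231 and 0 in Ca1a.

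**Figure D5:**
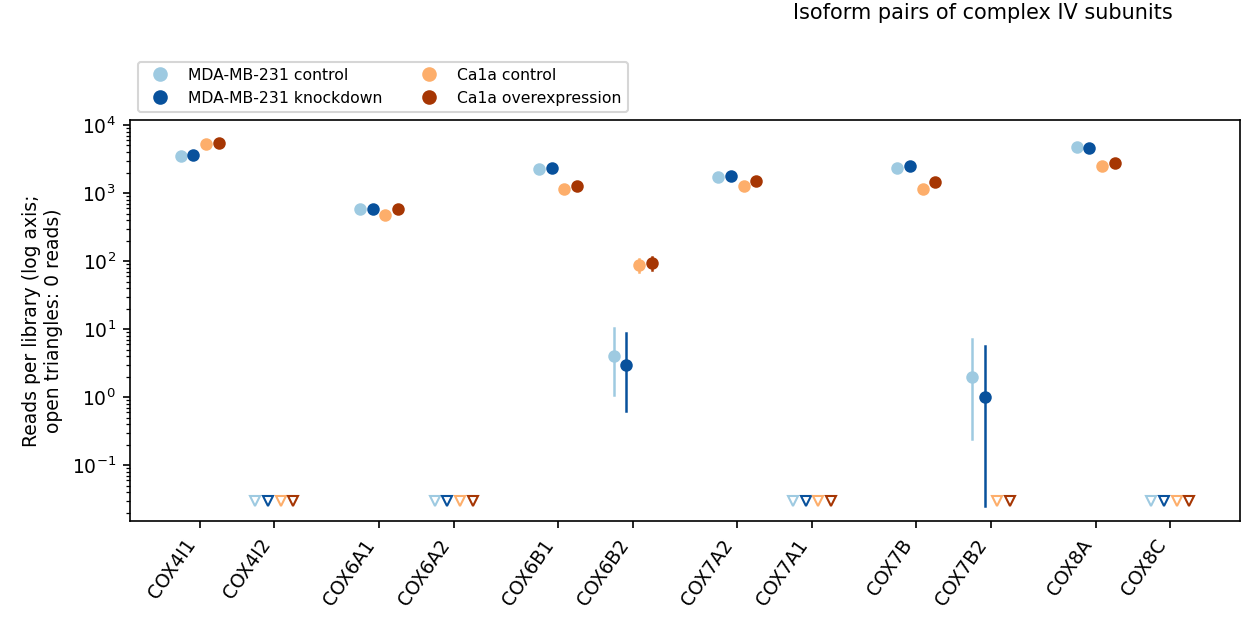
Reads per library (log axis) of the common and the tissue-restricted form of 6 complex IV subunits in the 4 libraries, with 95% Poisson intervals. Open triangles mark 0 reads. COX6B2, at 87 and 93 reads in Ca1a, is the tissue-restricted form with the most reads.

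The c subunit of the ATP synthase ring is made from 3 genes whose mature proteins are alike. In the MDA-MB-231 control ATP5G1 gave 21.1% (20.2 to 22.1) of their reads, ATP5G2 40.7% (39.5 to 41.9) and ATP5G3 38.2% (37.0 to 39.3). In the Ca1a control the shares were 10.5% (9.69 to 11.3), 47.9% (46.6 to 49.3) and 41.6% (40.3 to 42.9). The ATP5G1 share was 21% in the knockdown library and 11.2% in the overexpression library, inside the counting interval of its control in each line. The lines thus differed in the share of ATP5G1 by more than the libraries of 1 line did.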

How the data were processed

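RNA-seq of total RNA was analysed, 1 library per group. The submitters' processing notes list HISAT2, Cufflinks, HTSeq and DESeq, with GRCh38.p5 and hg38 as builds. For roles, versions, order and use of strand the sources used here give nothing. The Ca1a tables hold counts per gene as whole numbers. Unscaled counts and counts scaled by a size factor of 1 would look alike, so the values do not show which they are. The MDA-MB-231 values, per the file headers base means, are a signal: counts that the authors scaled by a size factor. Dividing by the lowest nonzero value gave whole numbers throughout (tolerance 1e-06), and these served as reads. Adjusted p-values and a table of FPKM were deposited too, the denominator of the FPKM being unknown here.

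Log2 ratios are of values plus a pseudocount of 1, or of 0.01 for FPKM. Levels have exact Poisson intervals, shares exact binomial (Clopper-Pearson) intervals, and ratios exact conditional binomial ones. The ratio between comparisons has a normal interval on the log scale. Genes reaching a mean of 20 normalized counts entered the fold rule, which is a rule of size and no statistical test. Reads carry no molecular identifiers, and intervals and limits speak for counting error only.

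The members, lists and the fold were chosen with earlier results of these data known. Named are the called members, the members with the largest ratios per complex (up to 4), isoform pairs, and the extremes of level and of the ratio between controls. The letters of the promoter motifs, the stretches printed, the overlaps and the mismatches of counts and FPKM were picked with their values in view. GENCODE 29 (GRCh38) gave positions, exons and the GC content of the longest transcript, through Entrez IDs. The calls and intervals were tried on simulated counts with counting error alone, which says nothing of variation between cultures. Other scalings, units, filters, folds and pseudocounts were tried, and classes of length, abundance and GC, and reads scaled to transcript length, were added after seeing the data. TMM factors came from edgeR 4.0.16 in R 4.3.3. All else ran in python 3.11.15, using scipy 1.17.1, numpy 2.4.6, pandas 2.3.3 and, for plots, matplotlib 3.10.9.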

Additional observations from a re-analysis of the deposited data

How the results depend on the processing

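No paired analysis was possible because each group has 1 library, and for the same reason no library could be left out. In the overexpression comparison the count of members called higher was 18 to 22 under every scaling, unit, filter and pseudocount tried and without the counting interval, 20 with subunits alone, 28 by the counting interval alone and 2 with at least 1.2-fold. With FPKM, 33 of 42 members had the same call as in counts, ATP5J2, which had a ratio under 1 in counts, was called higher, and ATP5C1 stood at 1.07 and ATP5F1 at 1.09. The median log2 ratio was 0.12 to 0.15, and ATP5D was the 1 member called lower under every setting. In the knockdown comparison the count of members called higher was 3 with FPKM, where 2 were called lower (19.4% and 19.1% of all genes). It was 0 with at least 1.2-fold, 9 by the counting interval alone on the authors' size factors and 2 without the interval. The median log2 ratio of that comparison stayed above 0, from 0.03 to 0.06, and was lowest with scaling by total reads, where that of all tested genes was -0.02. Between the controls 4 members were at least 2-fold higher in MDA-MB-231 with an FPKM pseudocount of 1, and 5 in reads scaled to library size, with or without length. Depth limits many members not called, among them UQCRHL, COX6B2, ATP5J2 and ATP5S, whose intervals hold 1 and reach beyond 1.1-fold.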

Other observations

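Copies of subunit genes hold reads that a short sequence cannot always place. Of 51 pseudogene rows named after members, 17 had at least 1 read and 5 had a mean of at least 20 normalized counts in a comparison. COX6A1P2 had more reads than COX6A1 itself, 70.3% of the reads of the pair in the Ca1a control and 68.3% in the MDA-MB-231 control. It stood at 1138 counts in the Ca1a control and 1348 in the overexpression library, 1.18-fold higher (1.09 to 1.28), beside 1.19-fold for COX6A1, and the pair summed to a ratio of 1.19 (1.11 to 1.27). UQCRHL held 23.7% of the reads of UQCRH and UQCRHL together in the Ca1a control, and the summed ratio there was 1.1 (1.03 to 1.17).

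UQCRFS1P1, a pseudogene of the Rieske protein gene, went against its parent in Ca1a. It had 327 counts in the control and 183 in the overexpression library, 1.79-fold lower (1.49 to 2.15), while UQCRFS1 was among the members called higher. Parent and copy together had 2362 and 2449 counts, a ratio of 1.04 (0.979 to 1.1) that held 1. In MDA-MB-231 the copy had 362 and 388 normalized counts, a ratio of 1.07 (0.925 to 1.24). The call of UQCRFS1 therefore depends on how reads were divided between parent and copy, which the tables do not show.

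Overlaps in the annotation touch other members. On the opposite strand ATP5J shares 413 exonic bases with GABPA, ATP5I 579 with MYL5, ATP5F1 350 with WDR77 and SDHC 774 with CFAP126. On the same strand ATP5O shares 655, SDHD 319, ATP5L 277, COX6A1 175 and COX8A 175 with another protein-coding gene. ATP5J2 shares 177 with the readthrough gene ATP5J2-PTCD1. Whether counting used strand is unknown from the sources used, so reads of such partners cannot be told apart.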
